A study of Homo sapiens with 7 samples.

Results

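The mRNAs of the translation initiation factors were measured in HCT116 cells, a human colorectal carcinoma line, that carry a DROSHA knockout and were transfected with a microRNA. The genes were chosen by name: every symbol that starts with EIF followed by a digit from 1 to 6, without EIF4ENIF1, the eIF2 kinases (EIF2AK), antisense and divergent RNAs, and pseudogenes. Of 68 symbols with that start, 48 were kept, out of 15659 gene symbols listed in the libraries. Reads of 45 of the 48 were present in every library, and 42 passed the filter on low counts and were tested.

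The comparison was between DROSHA-KO cells given a control miRNA (3 libraries) and DROSHA-KO cells given miR-148a-3p (3 libraries), harvested 48 h after transfection. The knockout was carried by both groups, and DROSHA is the nuclear enzyme that releases microRNA precursors, whose loss is known to deplete canonical microRNAs; they were not measured in these cells here. The libraries were made from 500 ng of total RNA with oligo-dT priming, so that reads start from poly(A) tails. If reads come from the 3' end alone, a count does not scale with transcript length. On that premise, which was not tested here, levels of different genes were set side by side as CPM. CPM is a library's counts scaled to a common total by the TMM method. Differences between groups are given as the log2 ratio (log2 fold change) of miR-148a-3p over control, fitted with edgeR. The labels do not say whether the knockout line is 1 clone, whether the libraries came from separate cultures, or what the control miRNA is. A wild-type small RNA library of the same series holds no mRNA and was not used.

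Translation of most mRNAs starts with binding of the cap by eIF4F, scanning of the small ribosomal subunit with eIF1, eIF1A, eIF3 and the eIF2-bound initiator tRNA, and joining of the large subunit. Phosphorylation of eIF2 and sequestration of the cap-binding protein by 4E-binding proteins are the known control points. MicroRNAs repress their targets through the CCR4-NOT deadenylase and decapping, and interference with cap recognition has also been described. The transfected microRNA is shown because it defines the comparison, with the seed (bases 2 to 8) in capitals; the mature sequence is RefSeq's, on GRCh38.p14 at chr7:25949922-25949943, minus strand.

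miR-148a-3p: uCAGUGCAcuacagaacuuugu

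The libraries held 630142 to 1564125 counts over 12448 to 13849 genes, and 1 read was worth 0.659 to 1.65 CPM. The initiation factors made up 0.959% to 1.04% of the counts of a library. DROSHA itself had 31, 16 and 16 reads with the control miRNA against 20, 15 and 13 reads in the other group; this checks no label, since both groups carry the knockout, and which part of the gene was altered is not stated in the labels. Of 12 colon epithelium markers 8 had reads, and most of these reads were from the keratins, with KRT18 at 978 to 1271 CPM. EPCAM was at 16.4 to 34.6 CPM, CDH1 had 1 to 13 reads per library, VIL1 0 to 2 and LGALS4 0 to 1. Of the 5 tested, KRT8 had a log2 ratio of −0.55 and CDX2 of −0.68, and 0 passed; their part in the results on initiation factors was not tested. KRT20, CDX1, CEACAM5 and TFF3, markers of differentiated colon epithelium, were listed in no library. Of 10 blood cell markers, CD33 was the 1 with reads, 0 to 11 per library, and of 10 fibroblast and endothelial markers 5 had reads, nearly all of them from COL1A1 (27 to 83 per library). On the first principal component, which held 29.8% of the variance, control replicate 1 (−31.4) and miR-148a-3p replicate 3 (34.2) lay at the ends, with the other 4 libraries between −8.29 and 13.1.

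With miR-148a-3p, 0 of the 42 tested initiation factors passed an adjusted p below 0.05 (edgeR quasi-likelihood test, Benjamini-Hochberg over 8921 genes). Over all genes the same test called 1 (0.0112%), MORF4L1, which is no initiation factor; without control replicate 1 it called 26, again with 0 initiation factors. limma-voom also called 0 initiation factors, as did DESeq2, which gave no adjusted p for 19 of the 42. At an unadjusted p below 0.05 edgeR had 3 of the 42 (7.14%), all with lower fitted values (EIF3E, EIF4B and EIF4G3). Of all genes tested, 3.4% met that rule in the same direction. DESeq2 had 2 at that level (EIF3E and EIF4B) and limma-voom the same 3 as edgeR. Fitted values were lower for 18 and higher for 24, and their median log2 ratio was 0.03, beside −0.0039 for all genes tested. The smallest adjusted p of any initiation factor was 0.626 (EIF3E).

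**Figure D1:**
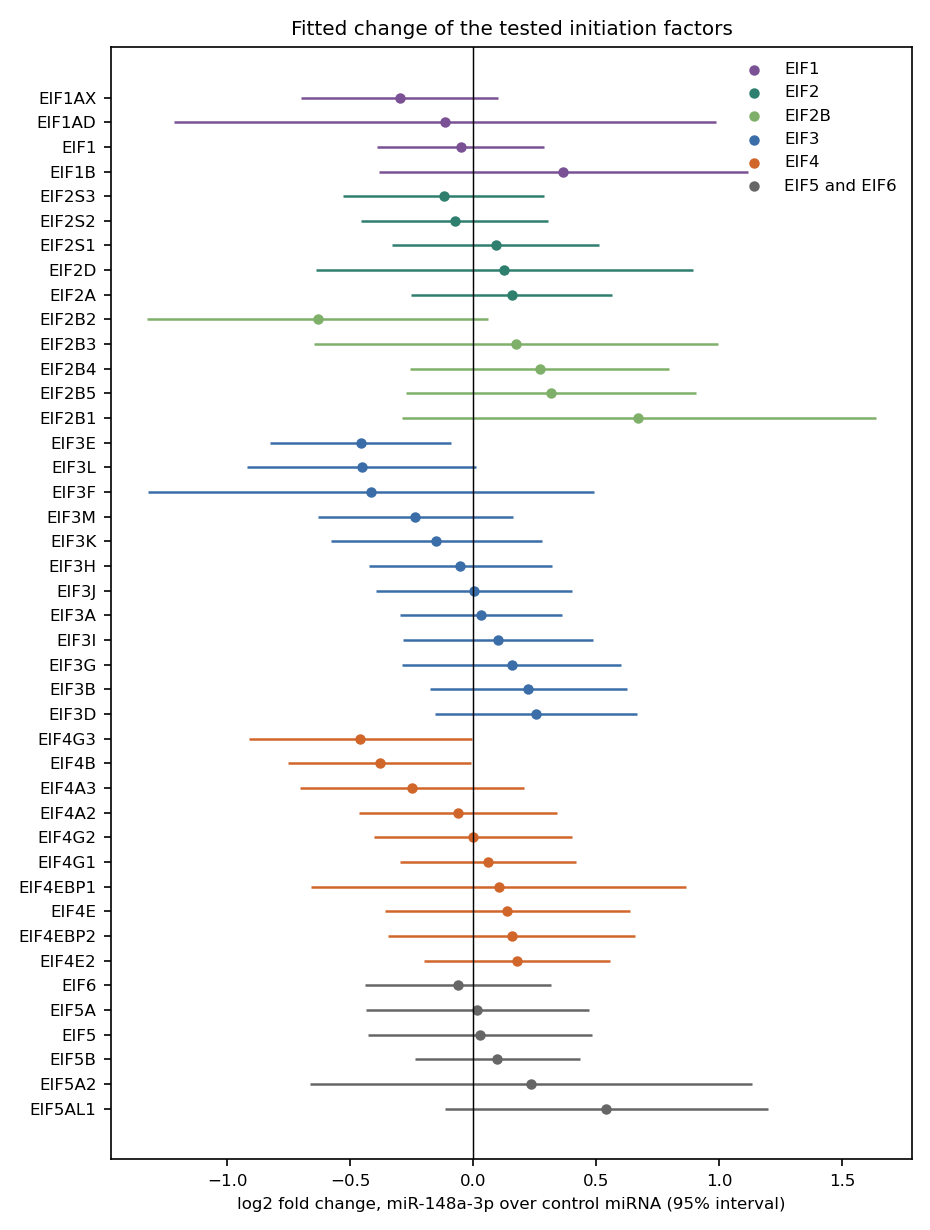
Fitted log2 ratio (miR-148a-3p over control miRNA, horizontal axis) of the 42 tested initiation factors, coloured by factor group, with bars for 95% intervals. The intervals of EIF3E, EIF4B and EIF4G3 end below 0, and 35 of 42 lie wholly between −1 and 1.

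The precision of the comparison was set by 3 libraries a group and their depth. For 35 of the 42 tested factors the 95% interval lay wholly within a 2-fold change in either direction, beside 60.2% of all genes tested. The other 7 were EIF1AD, EIF1B, EIF2B1, EIF2B2, EIF3F, EIF5A2 and EIF5AL1, each at 13.4 to 38.9 CPM in the control group. The median distance from the centre of the interval to its end was 0.43 on the log2 scale for the initiation factors and 0.63 for all genes. The tested factors had a median control level of 146 CPM, beside 44.8 CPM for all genes tested. The part of level in the narrower intervals was not tested.

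**Figure D2:**
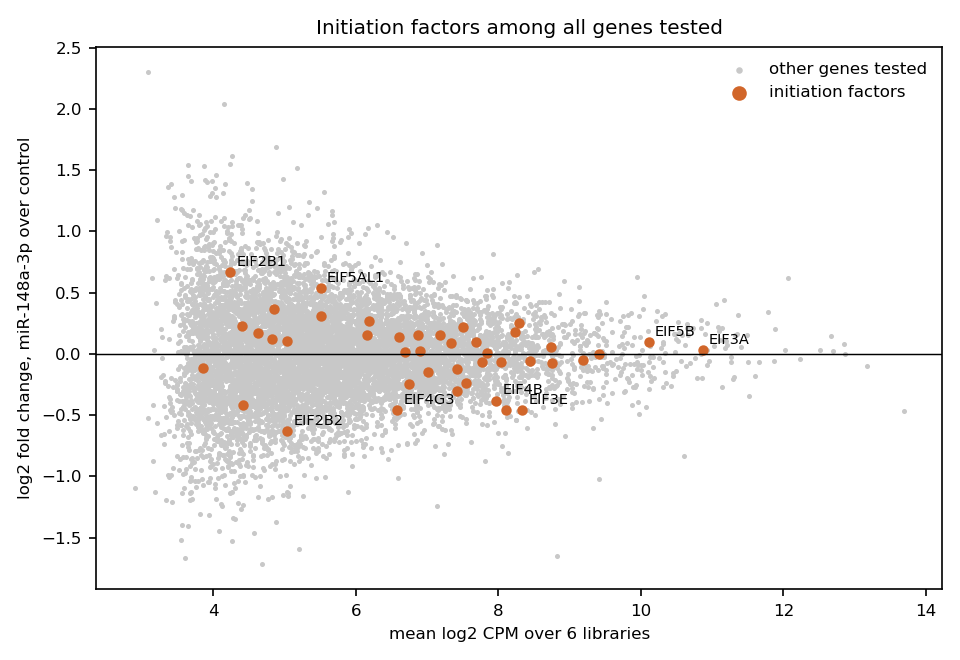
Mean log2 CPM over 6 libraries (horizontal) against fitted log2 ratio (vertical) for all 8921 genes tested, with initiation factors in orange. The initiation factors lie within the cloud of other genes, between −0.63 (EIF2B2) and 0.67 (EIF2B1).

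At baseline, in the control miRNA group, the initiation factors summed to 10169 ± 452 CPM (SD, n = 3), 1.02% of the library. EIF3 subunits made up the largest share of this, at 4271 ± 387 CPM over 13 genes. EIF4 genes summed to 2398 ± 282 CPM over 14 genes, EIF5 and EIF6 to 1565 ± 32.2 over 6, EIF2 to 938 ± 143 over 6, EIF1 to 817 ± 29.0 over 4 and EIF2B to 179 ± 14.5 over 5. EIF3C added only 1 read to the EIF3 sum. The EIF4 sum holds EIF4A1 at 10.4 CPM and leaves out the overlapping readthrough gene SENP3-EIF4A1, at 90.8 CPM. The sums are therefore of reads by symbol. Levels spanned from 1856 CPM for EIF3A, rank 45 among all listed genes, to single reads for EIF3C and EIF2S3B.

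**Figure D3:**
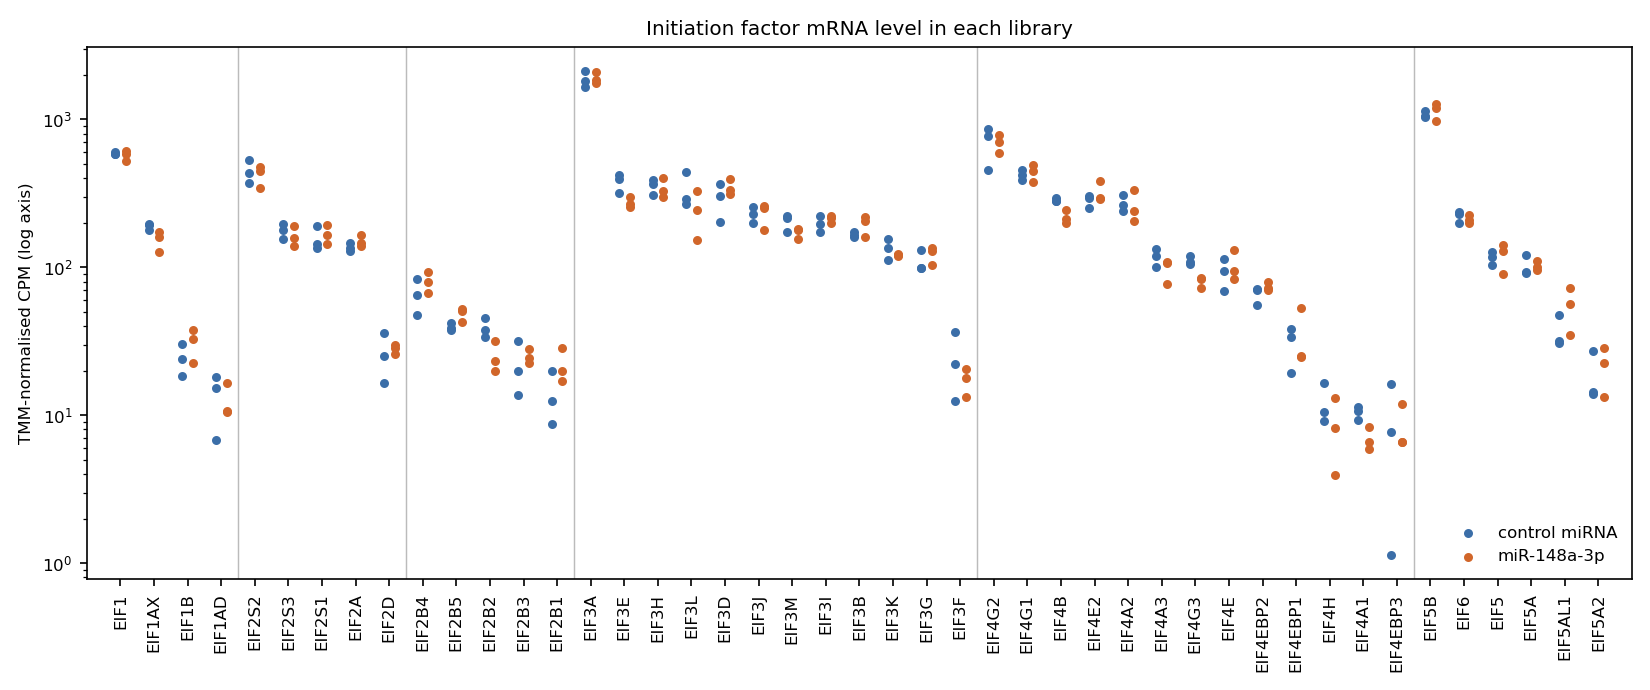
TMM-normalised CPM (log axis) of the 45 initiation factors with reads in every library, 1 point per library, in blue for the control miRNA and orange for miR-148a-3p, ordered by control mean within EIF1, EIF2, EIF2B, EIF3, EIF4 and EIF5 with EIF6. EIF3A and EIF5B stand above the others, at 965 to 2110.3 CPM, and the points of the groups overlap for most genes.

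Summed by factor group, the levels with miR-148a-3p overlapped those of the control in every group. The EIF3 sum was 4657, 4273 and 3883 CPM in the control libraries and 4298, 3779 and 4414 CPM with miR-148a-3p. The EIF4 sum was 2109, 2673 and 2412 CPM in the control libraries and 2093, 2508 and 2428 CPM with miR-148a-3p. The EIF2 sum with EIF2B was 1021, 1269 and 1061 CPM in the control libraries and 1123, 1046 and 1218 CPM with miR-148a-3p. As ratios of the means, these were −0.04, −0.03 and 0.02 on the log2 scale. In all 3 groups the ratio of the sums lay within 0.04 of 0, and the difference of means was smaller than the SD of either group of libraries.

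**Figure D4:**
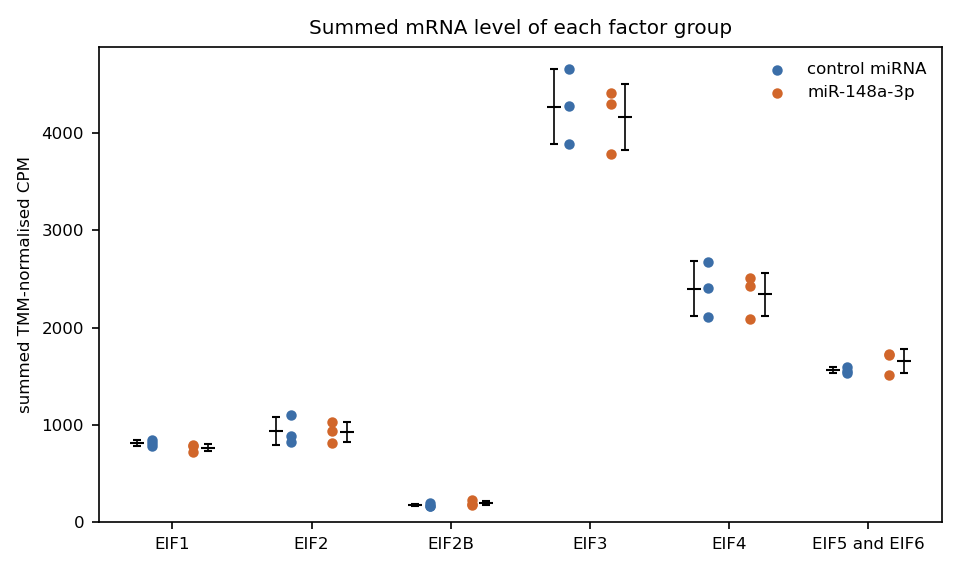
Summed TMM-normalised CPM (vertical axis from 0) of each factor group, 1 point per library, with mean and SD over 3 libraries in black; EIF2 is shown without EIF2B. The EIF3 sums run from 3779 to 4657 CPM and the EIF4 sums from 2093 to 2673 CPM, with both transfections overlapping.

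The factors that hold the scanning ribosome in an open state are eIF1 and eIF1A. EIF1 (chromosome 17, 41688885 to 41692668) was at 583, 604 and 585 CPM in the control libraries and 581, 518 and 611 CPM with miR-148a-3p. Its log2 ratio was −0.05, with a 95% interval of −0.39 to 0.29. Its paralog EIF1B was far lower, at 18.3, 30.3 and 23.9 CPM and at 33.0, 22.5 and 37.9 CPM, so that EIF1 held 96.1 ± 0.867% of the reads of both in the control group. EIF1AX, the X-linked gene of eIF1A, was at 179, 195 and 192 CPM with the control and at 159, 172 and 127 CPM with miR-148a-3p. Its groups did not overlap, but the difference did not pass (log2 ratio −0.30, SE 0.20, adjusted p = 0.790 by edgeR; −0.19 without miR-148a-3p replicate 3), and the pseudogene EIF1AXP1 held a further 8 to 18 reads per library. EIF1AD, named for an eIF1A domain, was at 13.4 ± 5.94 and 12.6 ± 3.39 CPM.

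The eIF2 complex carries the initiator tRNA, and its 3 subunits were not counted at equal levels. EIF2S2, the beta subunit (chromosome 20, 34088309 to 34112243), was at 368, 531 and 432 CPM with the control and 444, 342 and 476 CPM with miR-148a-3p. EIF2S3, the gamma subunit that binds GTP (chromosome X, 24054956 to 24078810), was at 177, 197 and 155 CPM and at 158, 139.6 and 191 CPM. EIF2S1, the alpha subunit that the eIF2 kinases phosphorylate, was at 156 ± 29.3 and 167 ± 24.6 CPM. All 3 overlapped between groups, with log2 ratios of −0.08, −0.12 and 0.09. EIF2A and EIF2D encode factors outside the complex that can deliver tRNA to the ribosome. EIF2A was at 129, 146 and 134 CPM and at 166, 147 and 139.9 CPM, and EIF2D at 25.9 ± 9.92 and 28.0 ± 1.83 CPM. The retrogene EIF2S3B had 1 read, in control replicate 1.

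EIF2B recharges eIF2 with GTP, and its 5 subunits were among the scarcest initiation factors, at 13.7 to 65.2 CPM in the control group. EIF2B4, the delta subunit, was at 82.8, 47.8 and 64.8 CPM with the control and 67.2, 92.3 and 79.0 CPM with miR-148a-3p. EIF2B5, the catalytic epsilon subunit (chromosome 3, 184135358 to 184145311), was at 38.5, 37.3 and 42.1 CPM and at 50.8, 52.1 and 42.8 CPM. It was the 1 tested initiation factor with every miR-148a-3p library above every control library, a pattern met by 6.22% of all genes tested. EIF2B2, the beta subunit, went the other way, at 33.7, 45.5 and 37.5 CPM and at 23.1, 31.9 and 19.8 CPM, also without overlap. EIF2B1, the alpha subunit, was at 8.67, 19.8 and 12.5 CPM and at 17.1, 28.4 and 19.8 CPM. The fitted log2 ratios were 0.31 (SE 0.29) for EIF2B5, −0.63 (SE 0.34) for EIF2B2 and 0.67 (SE 0.47) for EIF2B1, with edgeR adjusted p from 0.726 to 0.884. These values rest on 9 to 77 reads per library. With 1 library left out, EIF2B1 ran from 0.41 (without control replicate 1) to 1.03 (without control replicate 2). Over EIF2 and EIF2B together, 3 of 10 tested genes had lower and 7 higher fitted values, with a median of 0.14, and 0 passed. That median was 0.05 without control replicate 1.

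EIF3 is the largest initiation factor, a scaffold that links the small ribosomal subunit with eIF4F. Its subunits were counted over a wide range. EIF3A, the largest subunit (chromosome 10, 119033670 to 119080817), was at 2110.3, 1811 and 1646 CPM in the control libraries and 1850.2, 1757 and 2081 CPM with miR-148a-3p. Of the EIF3 reads counted, which include only 1 read of EIF3C, it held 43.4 ± 1.69% in the control group and 45.6 ± 2.20% with miR-148a-3p. Next came EIF3E at 377 CPM, EIF3H at 354, EIF3L at 332 and EIF3D at 290.4 CPM as control means. EIF3J, EIF3M, EIF3I, EIF3B, EIF3K and EIF3G followed between 228 and 109.7 CPM, and EIF3F was at 23.7 ± 12.0 CPM. These are reads per symbol; protein levels were not measured here.

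EIF3C, a core subunit, had 1 read in 1 control library and 0 in the other 5 libraries, where a count of 0 allows up to 3 reads, or 1.98 to 4.94 CPM. RefSeq has a near-identical gene, EIF3CL, on the same chromosome as EIF3C (chromosome 16, 28688558 to 28735730). EIF3CL was not analysed here, and the treatment of reads that match both genes is not stated in the labels. The level of EIF3C therefore cannot be read from these counts.

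Among the EIF3 subunits, EIF3E had the smallest p with miR-148a-3p. EIF3E, a subunit of the core (chromosome 8, 108201216 to 108248717), was at 395, 419 and 319 CPM in the control libraries and 298, 256 and 268 CPM with miR-148a-3p. Every miR-148a-3p library lay below every control library, and the log2 ratio was −0.46 (SE 0.18, 95% interval −0.83 to −0.09), with an unadjusted p of 0.0165 that did not pass over all genes (adjusted p = 0.626 by edgeR). With 1 library left out the log2 ratio ran from −0.56 to −0.38. EIF3L had a like fitted value, −0.45 (SE 0.23), with groups that overlapped at 440.2, 289 and 267 CPM and at 326, 153 and 244 CPM. Its highest value came from control replicate 1, without which the log2 ratio was −0.19, against −0.76 without miR-148a-3p replicate 1. EIF3D, which can itself bind the cap of some mRNAs, had the smallest p on the higher side, at 201, 365 and 305 CPM and at 331, 314 and 397 CPM (log2 ratio 0.26, SE 0.20). Control replicate 1 was its lowest library, and without it the log2 ratio was 0.043, against 0.45 without control replicate 2. Of the 12 tested subunits, 6 had lower and 6 higher fitted values, with a median of −0.03, and 0 passed.

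EIF4 genes encode the cap-binding complex eIF4F, its helpers and its inhibitors. EIF4E, the cap-binding subunit (chromosome 4, 98879276 to 98929133), was at 69.3, 113 and 94.4 CPM in the control libraries and 83.7, 94.6 and 130.1 CPM with miR-148a-3p. EIF4E2, which binds caps without recruiting eIF4G and acts in translational repression, was at 250.4, 305 and 292 CPM and at 293, 287 and 380.3 CPM. It held 75.2 ± 2.63% of the reads of the 3 EIF4E genes in the control group and 75.2 ± 1.90% with miR-148a-3p. EIF4E3 had 0 to 5 reads per library and was not tested. The log2 ratios were 0.14 (95% interval −0.36 to 0.63) for EIF4E and 0.18 (−0.20 to 0.55) for EIF4E2. Without miR-148a-3p replicate 3, the highest library for both, they were −0.049 and 0.043.

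The scaffold genes differed in level, with EIF4G2 above EIF4G1 and EIF4G3 below both. EIF4G1 (chromosome 3, 184314606 to 184335358) was at 389, 450.4 and 419 CPM in the control libraries and 377, 447 and 491 CPM with miR-148a-3p. EIF4G2, a relative that lacks the part binding EIF4E, was at 454, 863 and 764 CPM and at 595, 783 and 699.7 CPM. Control replicate 1 was the lowest of the 6 libraries for EIF4G2. EIF4G3 (chromosome 1, 20806292 to 21176897) was at 108, 119 and 105 CPM and at 83.0, 84.0 and 72.4 CPM, without overlap. Its log2 ratio was −0.46 (SE 0.22, 95% interval −0.91 to −0.01), with an unadjusted p of 0.0467 and an edgeR adjusted p of 0.725. With 1 library left out it ran from −0.49 to −0.40. For EIF4G1 and EIF4G2 the values were 0.06 and −0.0026.

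The helicase genes showed a dependence on how reads were assigned to symbols. EIF4A2 (chromosome 3, 186783577 to 186789897) was at 307, 265 and 239 CPM in the control libraries and 241, 330.1 and 204 CPM with miR-148a-3p, for a log2 ratio of −0.06. Its paralog EIF4A1 (chromosome 17, 7572825 to 7579006) was counted at only 10.6, 9.33 and 11.4 CPM and at 5.93, 8.28 and 6.59 CPM, from 11, 8 and 10 reads and from 9, 7 and 4 reads, too few to be tested. The readthrough gene SENP3-EIF4A1 (7561992 to 7579006) has the same RefSeq end as EIF4A1 and held 100, 65 and 88 reads and 175, 103 and 85 reads. EIF4A1 thus held 10.3% of the control reads of both symbols. By its own symbol EIF4A1 was lower in every miR-148a-3p library than in any control library, while the sum of both symbols was higher in every one. That sum was 107, 85.2 and 111 CPM in the control libraries and 121, 130.1 and 147 CPM with miR-148a-3p, for a log2 ratio of 0.38 (SE 0.21, adjusted p = 0.746 by edgeR). The sum was formed after the values were seen. Reads near a shared 3' end cannot be told apart by symbol, so the direction for EIF4A1 depends on the counting. EIF4A3, a relative in the exon junction complex, was at 117 ± 15.9 and 97.1 ± 17.1 CPM.

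**Figure D5:**
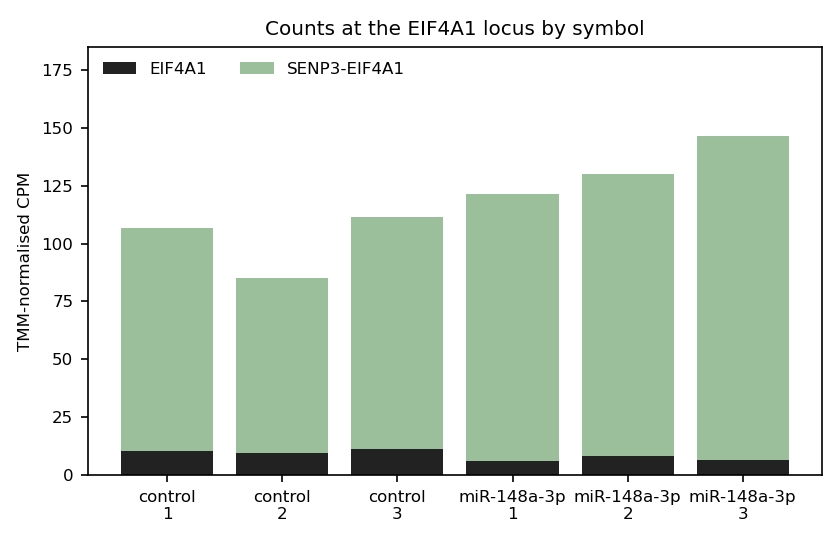
TMM-normalised CPM (vertical axis from 0) counted under EIF4A1 (black) and under the readthrough gene SENP3-EIF4A1 (green) in each library. The black parts are 9.33 to 11.4 CPM in the control and 5.93 to 8.28 CPM with miR-148a-3p, while the whole bars are 85.2 to 111 CPM and 121 to 147 CPM.

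The helicase cofactors are EIF4B and EIF4H. EIF4B (chromosome 12, 53006456 to 53042215) was at 292, 280.0 and 279 CPM in the control libraries and 199, 243 and 212 CPM with miR-148a-3p. The control libraries were close to each other (284 ± 7.24 CPM), and every miR-148a-3p library lay below them (218 ± 22.3 CPM). The log2 ratio was −0.38 (SE 0.18, 95% interval −0.75 to −0.01), with an unadjusted p of 0.0440 and an edgeR adjusted p of 0.725, and it ran from −0.46 to −0.31 with 1 library left out. EIF4H had 5 to 17 reads per library and was not tested. The inhibitors that bind EIF4E were low. EIF4EBP1 was at 33.7, 38.5 and 19.3 CPM and at 25.0, 24.8 and 52.7 CPM, and EIF4EBP2 at 70.3, 71.2 and 55.7 CPM and at 69.9, 72.2 and 79.0 CPM. EIF4EBP3 had 1 to 14 reads per library and the overlapping readthrough gene ANKHD1-EIF4EBP3 a further 3 to 10. Of the 10 tested EIF4 genes, 5 had lower and 5 higher fitted values, with a median of 0.03. That median was −0.14 without control replicate 3 and 0.13 without miR-148a-3p replicate 1.

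The last steps of initiation use eIF5 and eIF5B, and EIF6 was grouped with them here. EIF5B, the GTPase of subunit joining (chromosome 2, 99337389 to 99401326), was at 1129.8, 1057 and 1027 CPM in the control libraries and 1275, 965 and 1197 CPM with miR-148a-3p, for a log2 ratio of 0.10 with an interval of −0.24 to 0.43. EIF6, which keeps large subunits free (chromosome 20, 35278906 to 35284772), was at 228, 199.5 and 234 CPM and at 200.4, 209 and 226 CPM. EIF5, which makes eIF2 hydrolyse GTP, was at 116 ± 11.8 and 119.8 ± 26.3 CPM. EIF5A, a hypusine-bearing factor that also acts in elongation (chromosome 17, 7306999 to 7312463), was at 92.5, 121 and 91.0 CPM and at 110.1, 95.8 and 100.4 CPM. Its relatives EIF5AL1 and EIF5A2 were lower, with EIF5AL1 at 31.8, 47.8 and 30.7 CPM and at 34.9, 72.2 and 56.0 CPM, and EIF5A2 at 14.4, 14.0 and 27.3 CPM and at 22.4, 28.4 and 13.2 CPM. EIF5AL1 had the largest fitted value of these (0.54, SE 0.32, adjusted p = 0.767 by edgeR), which was 0.26 without miR-148a-3p replicate 2 and 0.81 without miR-148a-3p replicate 1. With its reads added to those of EIF5A, whose sequence it closely resembles, the log2 ratio was 0.18 (SE 0.20, adjusted p = 0.903 by edgeR).

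Over all 42 tested initiation factors, 5 had every miR-148a-3p library below every control library (11.9%, where 6.59% of all genes tested did). These were EIF1AX, EIF2B2, EIF3E, EIF4B and EIF4G3, and EIF2B5 was the 1 in the other direction. EIF4B and EIF4G3 are both EIF4 genes, and EIF2B2 and EIF2B5 are both EIF2B subunits. With edgeR 0 of the 6 passed over all genes tested. Direction in the pooled list was not stable to single libraries: 23 of 43 tested factors had lower fitted values when control replicate 1 was left out, and 25 of 44 when miR-148a-3p replicate 3 was, against 18 of 42 with all libraries. The unadjusted p of EIF3E stayed below 0.05 in 4 of the 6 fits that left out 1 library, that of EIF3L was below it in 3, and those of EIF2B2, EIF4B and EIF4G3 in 1 each, all with lower fitted values. In 2 of these fits (without control replicate 2 or miR-148a-3p replicate 1) EIF5AL1 did so with a higher one.

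Genes that act beside the initiation factors were described from lists of related pathways. Of 11 eIF2 kinase and phosphatase genes tested, 7 had lower and 4 higher fitted values, with a median of −0.22 and 0 past the threshold. The kinase EIF2AK4 (GCN2), which senses uncharged tRNA, had the smallest p, at 255, 148 and 174 CPM in the control libraries and 161, 97.0 and 114 CPM with miR-148a-3p (log2 ratio −0.62, SE 0.23, adjusted p = 0.593 by edgeR), with groups that overlapped; without control replicate 1 it was −0.35. Of 20 tested partners of the cap and the poly(A) tail, 11 had lower and 9 higher values (median −0.0075, 0 past the threshold), with the ribosome-associated helicase DHX29 at −0.45 (SE 0.22). Of 15 elongation and termination genes, 6 had lower and 9 higher values (median 0.12, 0 past the threshold). DPH5, of the pathway that modifies elongation factor eEF2, had the smallest p there, at 49.1, 60.7 and 31.9 CPM and at 70.5, 99.4 and 98.8 CPM (0.90, SE 0.27, adjusted p = 0.398 by edgeR). Of 18 mTORC1 genes, 7 had lower and 11 higher values (median 0.06, 0 past the threshold), with LAMTOR2, of the lysosomal Ragulator complex, at 0.80 (SE 0.34), or 0.50 without control replicate 3.

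A sequence feature not used to choose the genes is the start of the transcript. Many mRNAs of the translation apparatus begin with a 5' terminal oligopyrimidine tract, which makes their translation depend on mTORC1. RefSeq windows on GRCh38.p14 were searched on the transcript strand, at the annotated start alone, for a C followed by at least 4 bases that are each C or T. Windows were at hand for 41 of the 48 genes, and not for EIF2S2, EIF3A, EIF3E, EIF3G, EIF3H, EIF3L and EIF4EBP1. Such a start was present in 10 of the 41 (24.4%), against 5.14% of 27305 genes with a window. That background takes every gene with a window, whether or not it had reads in these libraries. The 10 were EIF2A, EIF2D, EIF2S3, EIF2S3B, EIF3D, EIF3F, EIF3K, EIF3M, EIF4A2 and EIF4B. Examples from EIF3 and EIF4 are shown with 15 bases before and 15 after the start and the run of C and T in capitals, to show how short the run is in EIF4B and how long in EIF3D.

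EIF4B (chr12:53006441-53006470, plus strand): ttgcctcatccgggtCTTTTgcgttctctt

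EIF4A2 (chr3:186783562-186783591, plus strand): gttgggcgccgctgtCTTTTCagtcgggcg

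EIF3M (chr11:32583816-32583845, plus strand): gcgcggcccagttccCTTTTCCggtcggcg

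EIF3D (chr22:36529152-36529181, minus strand): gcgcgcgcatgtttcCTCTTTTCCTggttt

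Of the 9 tested genes with such a start, 6 had lower fitted values with miR-148a-3p, with a median of −0.12. Of the 26 tested genes with a window and no such start, 8 did, with a median of 0.09. Genes without a window, EIF3E and EIF3L among them, are on neither side. This split was made after the values were seen and has no test; within it EIF4B had −0.38 and EIF3D 0.26, so the genes with the start did not share a direction. EIF2S3B is a near copy of EIF2S3, so their starts are not independent.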

How the data were processed

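The deposited values are whole-number counts of reads by gene symbol, one file per mRNA library, which the authors had not normalized (judged from the values). A symbol listed in some libraries and not in another was set to 0 there. The submitters' processing notes name cutadapt, STAR, Bowtie2 and GRCh38; which step each served, how reads were assigned to genes and whether strand was used is not stated there. Reads of overlapping genes and near copies may be counted under another symbol. The test was that of edgeR 4.0.16, run in R 4.3.3 (TMM, filterByExpr, quasi-likelihood F test, group as the only term), with p-values adjusted by the Benjamini-Hochberg method over 8921 genes. Levels are TMM-normalised CPM. Log2 ratios are those edgeR reports, which are slightly shrunk. Their standard errors and 95% intervals come from its unshrunk coefficients and the F statistic. A ratio can therefore lie slightly off the centre of its interval. DESeq2 1.42.0, limma-voom (limma 3.58.1), other size factors and filters, a replicate block and each library left out were alternatives. With 3 libraries against 3, an exact two-sided permutation test cannot give a p below 0.1 and was not used. The labels do not say that libraries of a group are separate cultures: the p-values reflect library-to-library spread alone, perhaps a technical one; within a group, pairs differed by 2.52 to 5.30 times Poisson variance. Floors on single counts cover counting error only. RefSeq gene spans (GRCh38.p14) gave the coordinates. The fitting script was tested on simulated counts.

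The genes, the lists and the rule for genes named were chosen with earlier results of these data known. Values in every library are given for the 2 genes with the highest control mean in each factor group, the smallest p in each direction, those with an unadjusted p below 0.05, and paralogs; EIF3L and others given in full were named after their values were seen.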

Additional observations from a re-analysis of the deposited data

How the results depend on the processing

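Under every alternative tried, 0 initiation factors were called, although DESeq2 gave no adjusted p for 19 of the 42; the smallest adjusted p was 0.369 (EIF3L, without miR-148a-3p replicate 1). The number of all genes called was 1, and became 7 with DESeq2 (which gave no adjusted p for 7264 genes), 3 with limma-voom, 18 with no filter on low counts, 3 with the replicate block, and 1 to 26 with 1 library left out (26 without control replicate 1). The EIF4 median log2 ratio of 0.03 ran from −0.14 to 0.13 with 1 library left out; the EIF2 and EIF3 medians moved by less than 1 SD between replicates under every alternative, and the summed control level stayed between 9944 and 10396 CPM. Of the tested named genes' log2 ratios under each alternative, 317 kept their direction, 20 did not, and none passed the threshold; 12 named genes had no adjusted p from DESeq2 and are not counted there. EIF4G2 (−0.0026) was at 0.039 with limma-voom and 0.041 with the replicate block. The others changed sign with 1 library left out, over ranges of −0.24 to 0.18 for EIF4G2, −0.10 to 0.014 for EIF1, −0.27 to 0.070 for EIF4A2, −0.053 to 0.16 for EIF5A, −0.049 to 0.31 for EIF4E, −0.026 to 0.16 for EIF4G1, −0.29 to 0.31 for EIF4EBP1, −0.20 to 0.070 for EIF2S2 and −0.046 to 0.13 for EIF3A. The cause of these shifts was not tested. Same-numbered libraries had correlations of their deviations of 0.133, 0.093 and −0.0018 over 8921 genes. For replicates 1 and 2 these were higher than with any library of another number. Control replicate 3 instead correlated best with miR-148a-3p replicate 2 (0.021). These values do not settle whether the numbers are pairs, and the main test used none. With the replicate block, 4 of 42 initiation factors (EIF3E, EIF3L, EIF4B and EIF4G3) had an unadjusted edgeR p below 0.05, all lower. Of all 8921 genes tested, 356 met that rule in the same direction. A sum of EIF3C and EIF3CL could not be made. Adding pseudogene reads gave −0.29 for EIF1AX and −0.05 for EIF2S2.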

Other observations

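Among the elongation and termination genes, those of the eEF1 complex differed in direction, which was noticed after the values were seen. EEF1A1, the main gene of the elongation factor that brings tRNA to the ribosome, was at 998, 1131 and 1128 CPM in the control libraries and 847, 828 and 761 CPM with miR-148a-3p (log2 ratio −0.42, SE 0.16, adjusted p = 0.616 by edgeR). Its paralog EEF1A2 was at 794, 515 and 595 CPM and at 836, 854 and 868 CPM (0.42, SE 0.18, adjusted p = 0.668 by edgeR). How reads that match both EEF1A1 and EEF1A2 were assigned is not stated, and a sum of the pair was not tested. EEF1G, a subunit of the exchange complex, was at 459 ± 45.8 and 340.3 ± 47.2 CPM (−0.43, SE 0.18, adjusted p = 0.660 by edgeR). With 1 library left out, EEF1A1 ran from −0.48 to −0.37, EEF1A2 from 0.29 to 0.62 and EEF1G from −0.51 to −0.32. The other EEF1 genes listed, EEF1B2, EEF1D and EEF1E1, had log2 ratios of −0.08, 0.22 and −0.15. DOHH, the second enzyme of hypusine formation on eIF5A, was at 9.83 ± 3.73 and 25.2 ± 7.58 CPM (1.32, SE 0.49, adjusted p = 0.593 by edgeR), while EIF5A itself was at 102 CPM in both groups. The DOHH values rest on 9, 12 and 6 reads with the control and 25, 25 and 18 with miR-148a-3p. With 1 library left out the DOHH log2 ratio ran from 1.13 to 1.64. None of these genes passed over all genes tested.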
